A study of Mus musculus with 6 samples.

Results

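The immediate-early genes followed here through the libraries of C2C12 myoblasts were 10: the FOS genes Fos, Fosb and Fosl1, the JUN genes Jun and Junb, the zinc finger genes Egr1 and Egr2, and Ier2, Myc and Dusp1. They were taken by gene symbol and are 10 of the 20950 entries of the expression table. All 10 reached a mean of 1 FPKM over the 6 libraries, as did 10726 of the 20940 entries whose name is not repeated. FPKM, fragments per kilobase of transcript, scaled to the size of the library, is a level per transcript length, so levels can be set side by side between genes. Between libraries the comparison is approximate, as the summed FPKM of a library ran from 461439 to 515215. Some calls changed when the libraries were scaled further, as given below.

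C2C12, an established mouse skeletal muscle line, grows as myoblasts in serum and fuses into myotubes when serum is reduced. Growing cells in DMEM with 10% FBS (fetal bovine serum) gave 1 library, labelled 10% FBS. Cells moved to a differentiation medium near confluence gave 1 library each of 2% HS (horse serum), 2% HS + exosome and 0.2% FBS, and 2 libraries of 0.2% FBS + exosome, replicates 1 and 2. The exosomes, small membrane vesicles, were isolated from FBS and added in the amount that 10% FBS contains. The media with FBS also bring the exosomes of that serum. Whether the 2 exosome libraries in 0.2% FBS came from separate cultures, and how long after the change of medium the RNA was taken, is not given in the sources used here. Their difference is the only measure of replicate spread, and it may be technical. These are libraries of whole cultures, in which fewer cells of a type and less RNA per cell cannot be told apart.

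The estimated depths lay between 33700000 and 39400000 reads per library. They were inferred from the spacing of low FPKM values, and no interval is given for a single value. All 10 myoblast and myotube markers in the table, among them Myod1, Myog and Acta1, were at 1 FPKM or more in every library. Their summed level was 4882 FPKM in 10% FBS, 5107 FPKM in replicate 1 and 3855 FPKM in replicate 2 of 0.2% FBS + exosome, and 9218 to 10684 FPKM in the other 3 libraries. With exosomes in 0.2% FBS, 3 of the 10 were more than 1 lower in each library on the log2(FPKM + 1) scale. These were Myh3 (-1.17 and -1.99), Acta1 (-1.19 and -1.72) and the fusion gene Tmem8c (-1.09 and -1.66), against 1.61% of all genes. With no size asked for, 8 of the 10 were lower in each library, against 27.5% of all genes. The other 2, Myf5 (0.79 and 1.12) and Cdh15 (0.27 and 0.31), were higher in each, against 55.2%. Acta1 alone made up 5322 of the 10684 FPKM summed in 0.2% FBS. Tubb3, the 1 of 7 neural and epithelial markers at 1 FPKM or more in any library, was also lower (-1.07 and -1.67). The part of these differences in the results below was not tested. None of the 6 endothelial markers reached 1 FPKM in any library.

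Immediate-early genes are transcribed within minutes of a growth factor or stress signal, from factors that are already in the cell, and their RNAs are short-lived. FOS and JUN proteins pair into AP-1, EGR proteins bind GC-rich promoters, MYC drives growth and ribosome synthesis, and DUSP1 is a phosphatase that switches MAP kinases off again. In myoblasts, mitogens in serum keep this system active, and several of these factors are known to oppose muscle differentiation.

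In the mm10 annotation Fos lies at chr12:85473890-85477273 on the plus strand and Fosb at chr7:19302696-19310051 on the minus strand. Jun is at chr4:95049034-95052222, minus strand, and Egr2 at chr10:67535475-67542188, plus strand. Junb, at chr8:84974484-84978718, and Ier2, at chr8:84661331-84662852, are on the minus strand of the same chromosome. Fosl1 is at chr19:5447547-5455946 and Myc at chr15:61985391-61990374, plus strand, and Dusp1 at chr17:26505590-26562128, minus strand.

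The start sites of 6 of the 10 genes (Fos, Fosb, Egr2, Jun, Junb and Dusp1) were found in a RefSeq promoter table of build GRCm38.p6. The 250 bases just before the start site, written 5′ to 3′ along the gene, are shown for 4 of them, the FOS pair with the widest range over the libraries, an EGR gene and the phosphatase. Capitals mark matches on either strand to the motifs searched: the CArG box bound by SRF, TGACGT (the core of the CREB site), GCGNGGGCG (the EGR site), TGANTCA (the AP-1 site), CACGTG (the E-box of MYC) and TATAAA.
Fos, chr12:85473640-85473889, plus strand: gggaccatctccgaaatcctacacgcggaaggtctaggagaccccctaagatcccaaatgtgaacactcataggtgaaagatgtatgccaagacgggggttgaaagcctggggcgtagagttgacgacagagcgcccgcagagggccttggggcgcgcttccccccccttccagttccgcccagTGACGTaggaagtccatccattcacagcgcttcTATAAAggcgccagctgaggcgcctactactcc
Fosb, chr7:19310046-19310295, minus strand: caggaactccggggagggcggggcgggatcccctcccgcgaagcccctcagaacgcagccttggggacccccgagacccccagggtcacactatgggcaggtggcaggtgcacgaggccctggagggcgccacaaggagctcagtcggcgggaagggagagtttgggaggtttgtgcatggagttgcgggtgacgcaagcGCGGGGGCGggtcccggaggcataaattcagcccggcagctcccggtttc
Egr2, chr10:67537619-67537868, plus strand: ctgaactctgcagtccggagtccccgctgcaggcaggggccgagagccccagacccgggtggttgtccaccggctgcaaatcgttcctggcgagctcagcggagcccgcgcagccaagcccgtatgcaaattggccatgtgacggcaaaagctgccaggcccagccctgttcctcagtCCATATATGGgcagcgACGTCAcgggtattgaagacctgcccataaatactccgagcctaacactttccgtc
Dusp1, chr17:26508473-26508722, minus strand: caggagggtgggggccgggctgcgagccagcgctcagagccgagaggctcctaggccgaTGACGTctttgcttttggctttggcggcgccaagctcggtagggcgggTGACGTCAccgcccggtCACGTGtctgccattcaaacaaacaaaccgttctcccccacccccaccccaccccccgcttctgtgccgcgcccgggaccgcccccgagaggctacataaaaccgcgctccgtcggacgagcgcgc

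TGACGT was present in the windows of 3 of the 6 genes, Fos, Egr2 and Dusp1, against 6.47% of all 32851 windows of this length in the table. In Fos it lay from -66 to -61 and the TATAAA match from -33 to -28, counted from the start site. TATAAA was found in 12.4% of all windows, and among the 6 genes in that of Fos. Egr2 carried a CArG box from -72 to -63, a motif of 1.47% of all windows, beside TGACGT on the other strand. Egr2 has several annotated starts, and the window shown is 1 of 5 in the table, each of which gave a chance of a match. Dusp1 held 3 TGACGT matches, of which 2 overlap on opposite strands, and a CACGTG. This E-box was also in a window of Egr2 that is not shown, and it occurred in 6.02% of all windows. GCGNGGGCG was in Fosb and in 4.7% of all windows. TGANTCA, at 6.75% of all windows, was in none of the 6 genes, and the windows of Jun and Junb held no match to any of these motifs. A match is a run of letters and not a measured binding site.

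In growing cells most of these genes were abundant. In the 10% FBS library the levels were 143 FPKM for Egr1, 113 for Fos, 102 for Junb, 89.8 for Jun and 58.6 for Ier2, followed by 25.7 for Dusp1, 18.4 for Fosb, 15.2 for Myc, 5.44 for Egr2 and 2.70 for Fosl1. In 0.2% FBS the order was another: Egr1 was still first at 44.7 FPKM, Jun and Junb followed at 41.1 and 39.9 FPKM, and Fos, at 3.04 FPKM, stood below Ier2, Myc and Dusp1. Fosb was the lowest of the 10 in both low-serum media without exosomes.

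**Figure D1:**
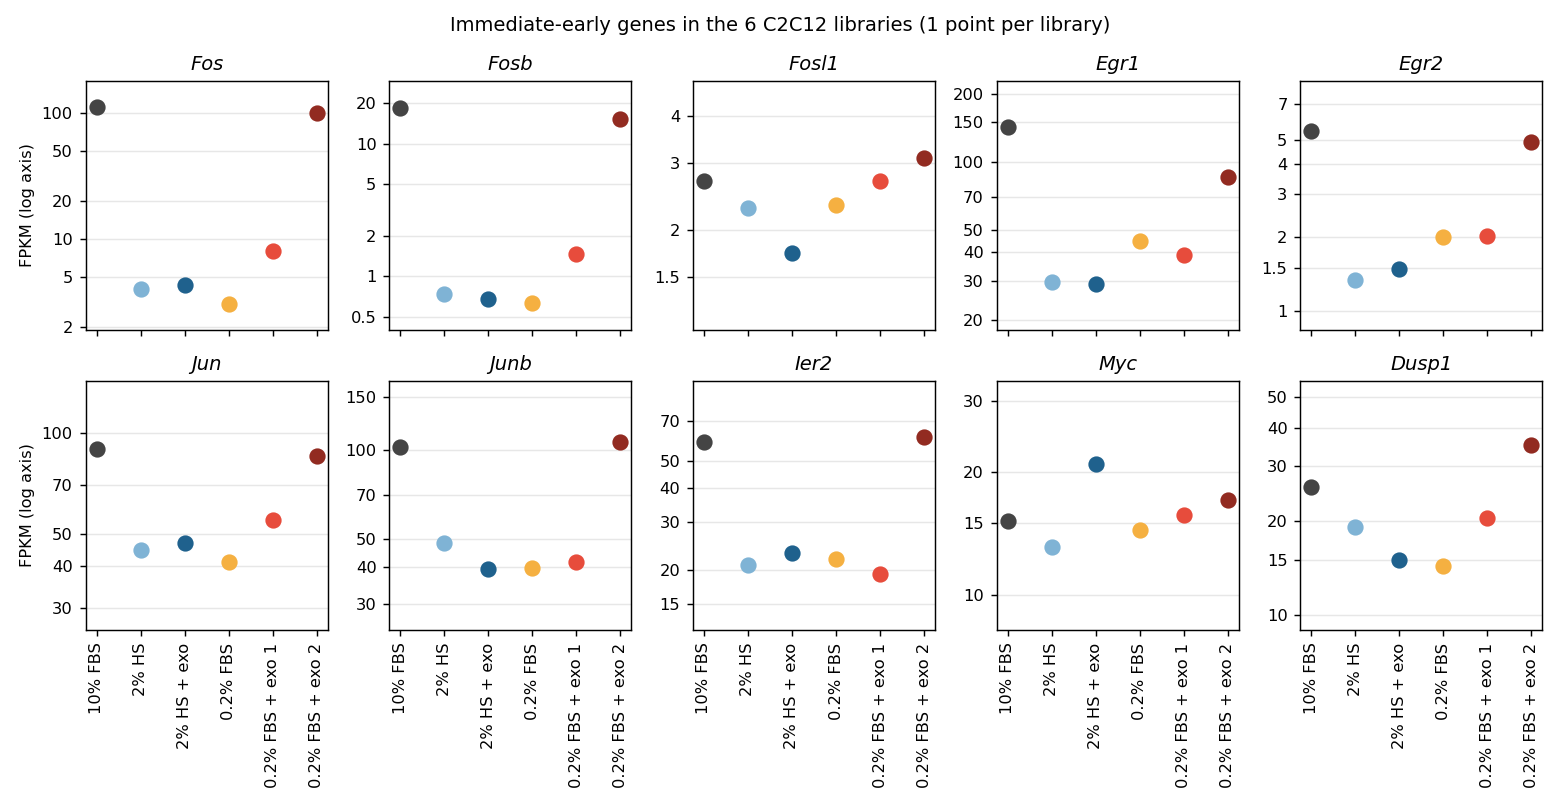
Level of each of the 10 genes (FPKM, log axis with its own range in each panel) in the 6 libraries, 1 point per library, with exo 1 and exo 2 for replicates 1 and 2 of 0.2% FBS + exosome. For Fos, Fosb, Egr1, Egr2, Jun, Junb and Ier2 the points of 10% FBS and of replicate 2 lie apart from the other 4, while Myc and Fosl1 stay within a range of 0.64 and 0.58 on the log2(FPKM + 1) scale.

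The first comparison set each low-serum library against the growing cells, 1 library against 1 and hence without a test. A gene was called where log2(FPKM + 1) differed by more than 1. Lower in 0.2% FBS than in 10% FBS were 7 of the 10 genes, Fos, Fosb, Egr1, Egr2, Jun, Junb and Ier2, against 0.69% of the 10726 genes. None was called higher, against 1.79% of all genes. In 2% HS the called genes were 6, the same ones without Jun, whose difference was -0.99, and 0.522% of all genes were called lower there. Both comparisons use the same 10% FBS library.

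Fos encodes the FOS subunit of AP-1. Its level was 113 FPKM in 10% FBS, 4.04 in 2% HS, 4.32 in 2% HS + exosome, 3.04 in 0.2% FBS, 8.03 in replicate 1 of 0.2% FBS + exosome and 100.2 in replicate 2. Only 10% FBS and replicate 2 were high. Replicate 1, of the same condition as replicate 2, lay far below both, though above the 3.04 to 4.32 FPKM of the remaining libraries. The 0.2% FBS level was 2.70% of that in growing cells, a difference of -4.81 on the log2(FPKM + 1) scale that ranked 10725 of 10726 from the top.

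Fosb, a close relative of Fos, followed the same profile at a lower level. It measured 18.4 FPKM in 10% FBS, 0.735 in 2% HS, 0.673 in 2% HS + exosome, 0.635 in 0.2% FBS, 1.47 in replicate 1 and 15.2 in replicate 2. It too was high in 10% FBS and replicate 2 and between 0.635 and 1.47 FPKM elsewhere. The reads behind its lowest values were estimated at 82 and 83, those behind the lowest Fos value at 213. The differences of Fosb from 10% FBS were -3.57 in 0.2% FBS and -3.49 in 2% HS.

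Jun and Junb, the partners of FOS proteins, were expressed in every library. Jun gave 89.8 FPKM in 10% FBS, 44.8 in 2% HS, 47.0 in 2% HS + exosome, 41.1 in 0.2% FBS, 54.9 in replicate 1 and 85.6 in replicate 2. For Junb the values in the same order were 102, 48.4, 39.4, 39.9, 41.9 and 106 FPKM. Both genes kept between 39.2% and 49.9% of their growing-cell level in 2% HS and 0.2% FBS, where Fos kept 2.70% to 3.59%. Jun overlaps the antisense gene Junos, and Junb overlaps Prdx2, Fosl1 overlaps Ccdc85b and Dusp1 overlaps Ergic1, each on the opposite strand. The annotated span of Dusp1 also holds 2 pseudogenes and a sense intronic RNA, of which the latter and 1 pseudogene are on its own strand, so that strand could not separate them. The libraries keep the strand of the RNA, but whether the FPKM values used it is not given in the sources used here, so a share of reads from any of these partners cannot be told apart.

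Egr1 stood at 143 FPKM in 10% FBS, 29.6 in 2% HS, 29.1 in 2% HS + exosome, 44.7 in 0.2% FBS, 38.9 in replicate 1 and 85.9 in replicate 2. Its level in replicate 2 was the second highest of the 6 and lay between that of 10% FBS and the rest. Egr2, much the lower of the pair, read 5.44, 1.34, 1.49, 2.02, 2.02 and 4.91 FPKM in the same order of libraries. The differences from 10% FBS were -1.65 for Egr1 and -1.10 for Egr2 in 0.2% FBS, and -2.23 and -1.46 in 2% HS.

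Ier2, which encodes a nuclear protein induced with the FOS genes, measured 58.6 FPKM in 10% FBS, 20.9 in 2% HS, 23.0 in 2% HS + exosome, 21.9 in 0.2% FBS, 19.3 in replicate 1 and 61.3 in replicate 2. Replicate 1 was its lowest library and replicate 2 its highest. Dusp1 gave 25.7, 19.2, 14.9, 14.3, 20.4 and 35.3 FPKM in the same order. It was highest in replicate 2 and was not called in either serum comparison, with differences of -0.81 in 0.2% FBS and -0.40 in 2% HS.

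Myc and Fosl1 had the narrowest ranges of the 10. Myc lay at 15.2 FPKM in 10% FBS, 13.1 in 2% HS, 20.9 in 2% HS + exosome, 14.4 in 0.2% FBS, 15.7 in replicate 1 and 17.1 in replicate 2. Its highest library was 2% HS + exosome, and 0.2% FBS kept 94.7% of the growing-cell level. Fosl1, the FOS family member also called FRA-1, read 2.70, 2.28, 1.74, 2.32, 2.69 and 3.10 FPKM in that order, with 98 to 177 estimated reads per library.

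The libraries of 10% FBS and replicate 2 were both above the other 4 for 9 of the 10 genes, Myc being the exception, against 16.9% of the 10726 genes. The place of Fosl1 among the 9 rests on 2.70 FPKM in 10% FBS against 2.69 FPKM in replicate 1, within 0.01 on the log2 scale. This arrangement was chosen for counting after the values had been seen. After each library was scaled to the same 75th percentile it still held for 9 genes, against 13.7% of all. No gap between neighbouring libraries was wider than the difference between the 2 exosome replicates for 8 of the genes. In these 8 the widest gap lay within the span between the 2 replicates, so this follows from the order of the libraries. For Fosl1 and Myc, whose replicates differed by 0.15 and 0.12 on the log2(FPKM + 1) scale, 2 of the 5 gaps were wider.

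The question of the study's design was what added exosomes change in differentiating cells. With exosomes in 0.2% FBS, Fos rose in both libraries, by 1.16 in replicate 1 and by 4.65 in replicate 2 on the log2(FPKM + 1) scale, which is 2.64-fold and 32.9-fold in FPKM. The mean of 2.90 ± 2.47 (SD, n = 2) was the highest of the 10726 genes. The call asked for a difference past 1 in each exosome library, and Fos was the 1 of 10 genes to pass it, against 0.895% of all genes. None was called lower, against 1.61%. All exosome differences in this medium use the same 0.2% FBS library as the serum comparison above, so the error of that 1 library enters both.

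Fosb was higher by 0.59 in replicate 1 and by 3.31 in replicate 2, and the first of these missed the threshold. With a pseudocount of 0.1 in place of 1 FPKM it passed in both libraries, and 2 of the 10 genes were then called, against 1.8% of all genes. Dusp1 was 0.49 and 1.25 above 0.2% FBS, Jun 0.41 and 1.04, and Junb 0.07 and 1.39. After scaling to the 75th percentile the value of Junb in replicate 1 was -0.01. Fosl1 and Myc stayed close to the control in both libraries, with means of 0.23 ± 0.11 and 0.17 ± 0.08 (SD, n = 2). These are set against a median of 0.14 over all genes. Scaling lowered the means to 0.15 for Fosl1 and 0.07 for Myc, and the median of all genes to 0.04.

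In 2 genes the exosome libraries lay on opposite sides of the control. Egr1 was at -0.19 in replicate 1 and 0.93 in replicate 2, and Ier2 at -0.17 and 1.45. Egr2 was at 0.00 in replicate 1, or -0.05 after scaling, and at 0.97 in replicate 2. When no size was asked for, 8 of the 10 genes were above the control in each library, against 55.2% of all genes, and none was below it in each, against 27.5%. After scaling the count was 6, since Egr2 and Junb fell just below the control in replicate 1, against 46% of all genes, and none was below it in each, against 37.1%.

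Taken library by library, the counts were far apart. In replicate 2 alone, 6 of the 10 genes (Fos, Fosb, Jun, Junb, Ier2 and Dusp1) were more than 1 above 0.2% FBS, against 2.91% of all genes. In replicate 1 alone it was Fos only, against 1.45%. After scaling, Jun was at 0.90 in replicate 2, so that 5 genes passed there, against 1.82% of all genes, and Fos still was the 1 gene past 1 in replicate 1, against 1.06%. The median of the 10 genes was 0.13 in replicate 1 and 1.14 in replicate 2, where the medians of all genes were 0.09 and 0.18.

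**Figure D2:**
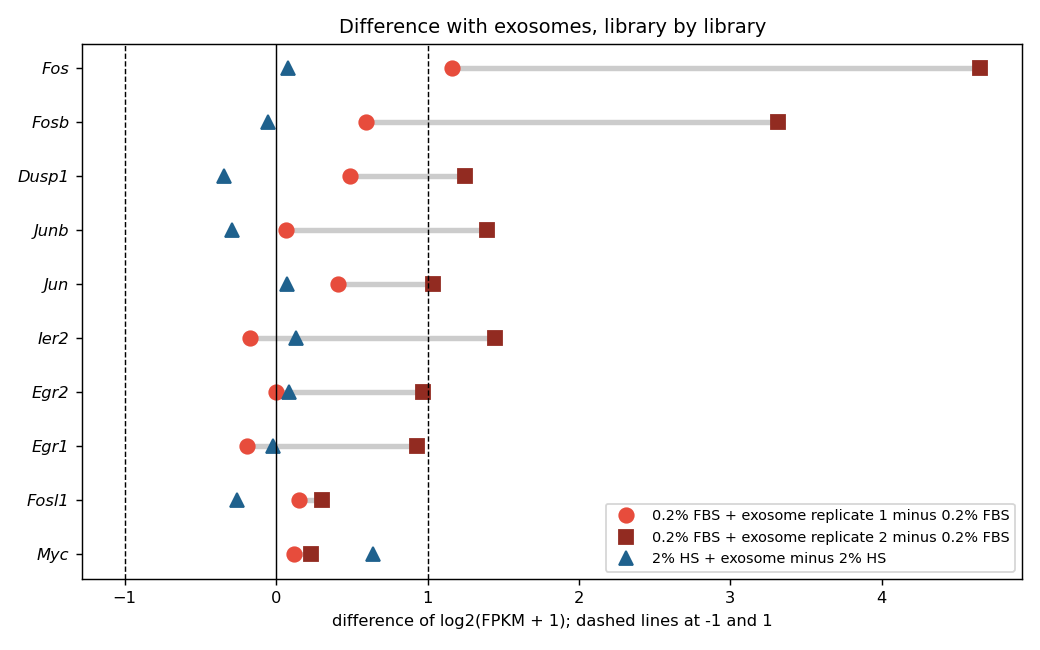
Difference of log2(FPKM + 1) with exosomes for each of the 10 genes, for replicates 1 (circles) and 2 (squares) of 0.2% FBS + exosome against 0.2% FBS and for 2% HS + exosome against 2% HS (triangles), with grey bars joining the replicates and dashed lines at -1 and 1. Fos is past 1 in both replicates, 5 further genes are past 1 in replicate 2 only, and every triangle lies between -0.34 and 0.64.

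A model across all genes, limma with 1 mean per condition, had 1 residual degree of freedom, which is the difference between the 2 exosome libraries. It called none of the 10 genes at an adjusted p under 0.05, against 12.5% of all genes, and none under any alternative to this fit. At an unadjusted p under 0.05 there were 4, Fos, Fosb, Jun and Dusp1, against 31.5%. By limma the effect for Fos was 2.90 with a standard error of 1.06 (adjusted p = 0.105, and 0.0813 to 1.00 over the alternatives). Dusp1 had the lowest adjusted p of the 10, 0.0736 by limma, with an effect of 0.87 and a standard error of 0.28 (0.0649 to 1.00 over the alternatives). When limma was given 1 exosome effect common to both media, it called 0 of the 10726 genes, 708 of them (6.6%) at an unadjusted p under 0.05, and none of the 10 in either way. In that fit without replicate 1 it called 0 genes (402 unadjusted), with Fos, Fosb and Ier2 of the 10 unadjusted, and without replicate 2 again 0 (294 unadjusted), with none of the 10. Leaving a library out of this fit was decided on with the data in view.

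The 2 libraries of 0.2% FBS + exosome were far apart at several of these genes. Replicate 2 was above replicate 1 by more than 1 for 5 of the 10, Fos (3.49), Fosb (2.72), Ier2 (1.62), Junb (1.33) and Egr1 (1.12), against 0.289% of all genes, which is 31 genes. Fos had the highest of these differences among the 10726 genes and Fosb the third. None of the 10 was below by more than 1, against 0.298%. Egr2 (0.97), Dusp1 (0.76) and Jun (0.63) came within ranks 36 to 154. Fosl1 (0.15) and Myc (0.12) were near the median of all genes, 0.07.

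Other genes set the 2 libraries apart in the opposite direction. Of 13 measured heat shock genes, 7 were lower in replicate 2 by more than 1, and the list's median difference was -1.01. Hspa1b, the inducible HSP70, was at 30.0 FPKM in replicate 1 and 5.39 in replicate 2, which is 3.42 and 1.14 above 0.2% FBS on the log2(FPKM + 1) scale. Dnajb1, its co-chaperone, was at 12.5 FPKM in 0.2% FBS, 55.0 in replicate 1 and 24.4 in replicate 2. Of 11 blood and platelet markers in the table, 5 or 6 reached 1 FPKM in 10% FBS, 0.2% FBS and both exosome libraries, and 3 in the 2% HS libraries. Their summed level was 30.9 FPKM in replicate 2 and 19.4 in replicate 1, of which the platelet chemokine Ppbp made up 17.0 and 7.86 FPKM, and 10.5 to 12.9 in the other 4 libraries. The leukocyte marker Ptprc was at most 0.0119 FPKM in any library, and Emr1 and Hbb-b1 were listed at 0. The part of these differences in the values of the immediate-early genes was not tested.

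**Figure D3:**
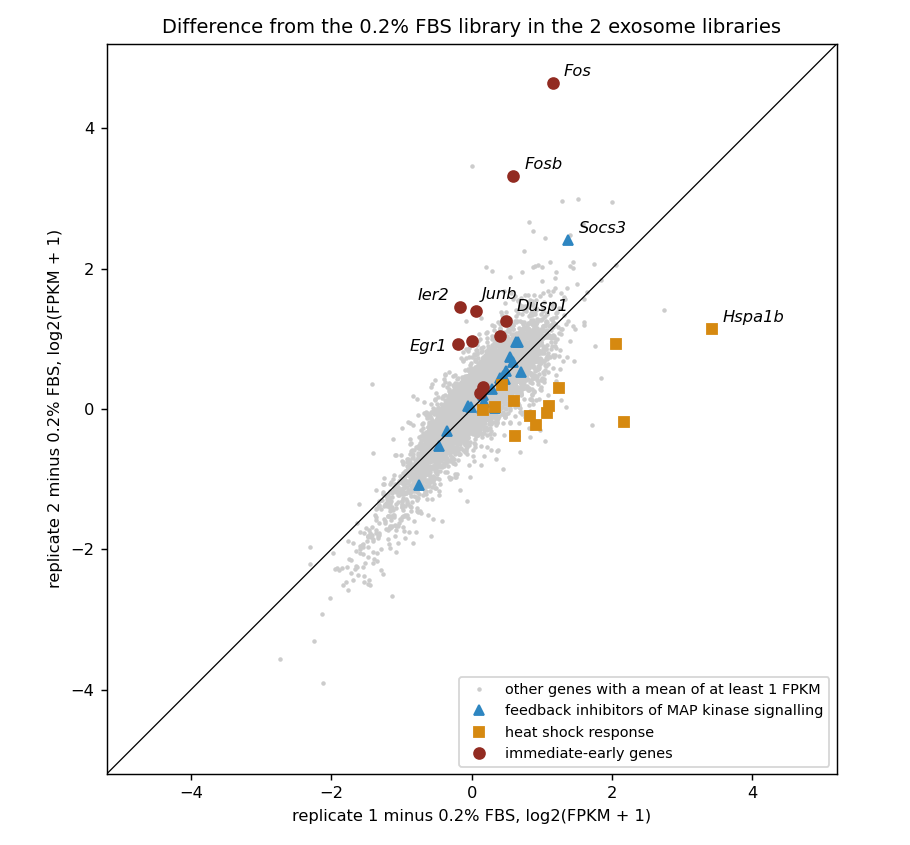
Difference from the 0.2% FBS library in replicate 1 (x axis) and replicate 2 (y axis) of 0.2% FBS + exosome, log2(FPKM + 1), 1 point per gene, with equal values on the diagonal. Fos (1.16 and 4.65) and Fosb (0.59 and 3.31) lie far above the diagonal and heat shock genes such as Hspa1b (3.42 and 1.14) and Hsph1 (2.18 and -0.19) below it. All genes share the same control library on both axes.

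Against growing cells the 2 exosome libraries gave different pictures. In replicate 2 all 10 genes were within 1 of the 10% FBS level on the log2(FPKM + 1) scale, as were 99% of all genes. In replicate 1 it was 4 of the 10 (Fosl1, Jun, Myc and Dusp1), against 99.1% of all genes. None was past 1 in both libraries, in either direction, where 0.205% of all genes were called higher and 0.00932% lower. Without replicate 2, 6 of the 10 would be called lower, against 0.242% of all genes.

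In FPKM, Fos stood at 89.1% of its 10% FBS level in replicate 2 and at 7.14% in replicate 1. Fosb had 82.6% and 7.95%. Ier2 had 105% and 32.9%, Junb 104% and 41.1%, and Egr2 90.3% and 37.1%. Egr1 was the gene furthest below the growing cells in replicate 2, with 60.3%, and had 27.3% in replicate 1. Dusp1 was above the growing-cell level in replicate 2, with 137%, and at 79.4% in replicate 1. Jun had 95.3% and 61.2%.

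In 2% HS the same addition of exosomes left all 10 genes within 1 of their control, 1 library against 1 and without a test. None was called higher, against 0.354% of all genes, and none lower, against 0.298%. Fos was at 4.04 and 4.32 FPKM without and with exosomes, a difference of 0.08. Myc showed the widest difference of the 10, 0.64, from 13.1 to 20.9 FPKM, which ranked 126 of 10726 from the top. Dusp1 was at -0.34, Junb at -0.29 and Fosl1 at -0.26, and the other 6 genes lay between -0.05 and 0.13. The median of all genes was -0.04.

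Whether the exosome difference is the same in the 2 media was tested as the difference of the 2 effects in limma. None of the 10 genes passed an adjusted p of 0.05, against 1.17% of all genes, and 1, Dusp1, passed unadjusted, against 19.5%. For Fos the effect was 2.82 higher in 0.2% FBS with a standard error of 1.62 (limma, adjusted p = 0.375, and 0.333 to 0.720 over the alternatives). For Myc it was lower by that contrast, -0.47 with a standard error of 0.24 (limma, adjusted p = 0.333, and 0.187 to 0.392 over the alternatives). With 1 residual degree of freedom the media were not shown to differ, nor to act alike, at these genes.

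The wider pathway was described by lists of other genes, whose counts are read against the 0.895% of all genes called higher and the 1.61% called lower with exosomes in 0.2% FBS. For lists of 3 to 40 genes these shares amount to fewer than 1 gene in each direction, so counts of 0 or 1 are near the background and are no result about a list. Upstream, 26 genes of the MAP kinase cascade and of the SRF and CREB activators were measured, and none was called in either direction with exosomes in 0.2% FBS. Their median difference was 0.10, beside 0.14 for all genes. Mapk3, which encodes ERK1, was highest among them, at 28.5 FPKM in 0.2% FBS, 44.3 in replicate 1 and 58.1 in replicate 2, differences of 0.62 and 1.00. Elk3, an ETS factor that binds with SRF, was at 0.52 and 0.63.

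Of 40 other measured immediate-early genes, none was called higher and 1 was called lower. The 1 was Hbegf, a ligand of the EGF receptor, which fell by 1.23 and 1.36 to 2.08 and 1.83 FPKM from 6.26. Their median difference was -0.12. Replicate 2 was above replicate 1 by more than 1 for 1 of the 40, Zfp36, which encodes an RNA-binding protein that destabilises short-lived mRNAs. Zfp36 measured 75.1 FPKM in 10% FBS, 11.7 in 2% HS, 11.0 in 2% HS + exosome, 11.3 in 0.2% FBS, 14.0 in replicate 1 and 47.0 in replicate 2. It was thus high in the same 2 libraries as Fos.

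Among 20 feedback inhibitors of growth factor and MAP kinase signalling, the class to which Dusp1 belongs, 1 was called higher and none lower. This was Socs3, an inhibitor of cytokine signalling, at 11.1 FPKM in 0.2% FBS, 30.3 in replicate 1 and 63.3 in replicate 2, differences of 1.37 and 2.41. Dusp8, a related phosphatase, was at -0.75 and -1.08. The median of the 20 was 0.36 in each library. Replicate 2 was above replicate 1 by more than 1 for 1 of the 20, again Socs3 (1.04), against 0.289% of all genes, and the median difference between the replicates was 0.04, beside 1.05 for the 10 immediate-early genes. The difference between the lists was not tested.

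The 11 AP-1 partners, the 3 EGR co-regulators and the 11 MYC partners and antagonists had no gene called in 0.2% FBS. Atf3, a stress-induced AP-1 partner, was called higher with exosomes in 2% HS, at 21.7 against 5.85 FPKM, a difference of 1.73, while in 0.2% FBS it was at -0.57 and -1.29. Maf, another basic leucine zipper factor, was at 0.87 and 1.02. Nab2, a repressor of EGR proteins, was at 0.58 and 0.52, and Egr3 at -0.52 and -0.65. The MYC antagonists Mxd4 and Mxi1 were at 0.83 and 1.04 and at 0.55 and 0.82.

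Downstream, none of 23 MYC targets of ribosome and nucleotide synthesis was called. Odc1, the first enzyme of polyamine synthesis, was at -1.11 and -0.94, and Cdk4, a cell cycle kinase, at 0.64 and 1.01. Of 14 measured targets of AP-1 and FOSL1, with Fosl1 itself among them, 1 was called higher and none lower. Plau, which encodes urokinase, rose by 1.45 and 1.17 to 139 and 115 FPKM from 50.2. Its receptor gene Plaur was at 0.95 and 1.27.

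**Figure D4:**
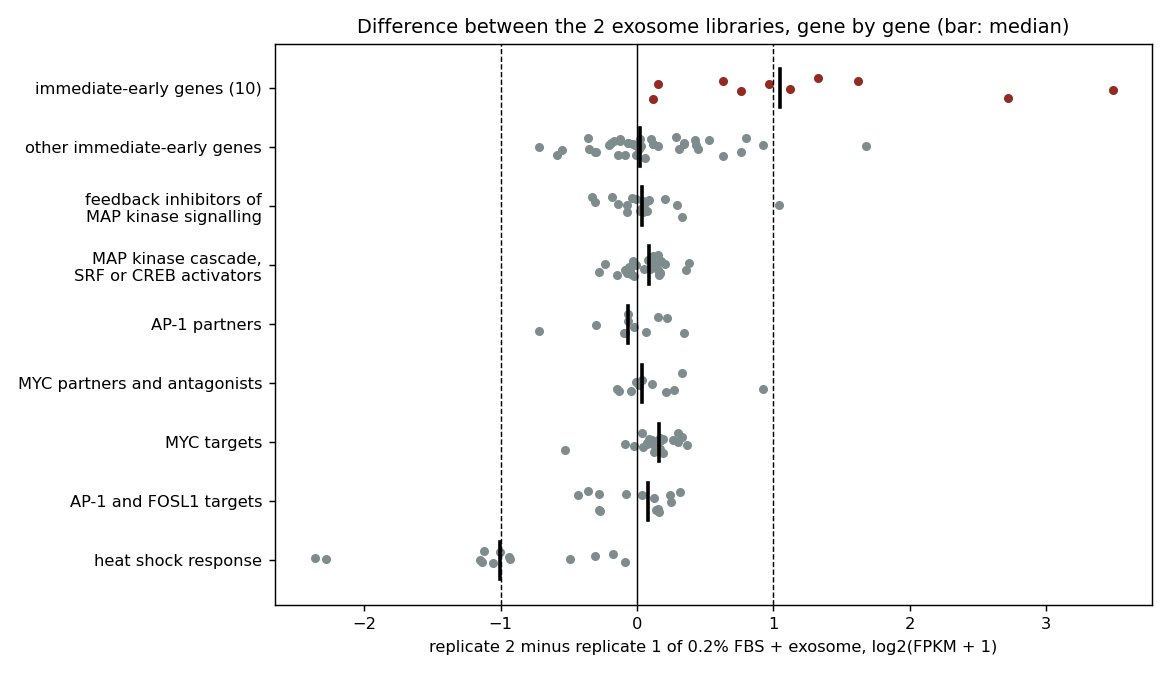
Difference between replicates 2 and 1 of 0.2% FBS + exosome, log2(FPKM + 1), 1 point per gene with a vertical bar at the median of each list and dashed lines at -1 and 1. The median is 1.05 for the 10 immediate-early genes, 0.02 for the 40 other immediate-early genes and -1.01 for the heat shock genes, with the 6 other lists drawn between -0.06 and 0.16.

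The 10 genes were also compared by the shape of their profiles, as the root mean square distance between profiles of log2(FPKM + 1) over the 6 libraries, each centred on its own mean. The nearest pairs within the 10 were Junb and Ier2, at 0.163, and Jun and Dusp1, at 0.197. Fos and Fosb were nearest to each other, at 0.50. Myc had Fosl1 as its nearest, at 0.319. The distance has no test, and it is wider for genes with a wider range.

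Outside the 10, 645 genes with a standard deviation of at least 0.5 were searched for profiles like those of Fos and Egr1. The nearest to Fos were Id3 (0.982), an inhibitor of myogenic transcription factors, Zfp36 (1.00), Socs3 (1.12), the chemokine gene Cxcl1 (1.19) and Rasl11a (1.37). Egr1 had Zfp36 (0.345), Mycl (0.352), Aim1 (0.363), Igfbp2 (0.374) and Slc14a1 (0.387). All 5 neighbours of each were found again after scaling. Myc had a standard deviation of 0.22, less than any gene searched, so no neighbours are given for it.

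Id3 measured 65.9 FPKM in 10% FBS, 8.50 in 2% HS, 7.80 in 2% HS + exosome, 15.0 in 0.2% FBS, 37.9 in replicate 1 and 123 in replicate 2. Its difference between the replicates, 1.68, was narrower than that of Fos. A pair of sets that share no library could be compared: the 31 genes higher in replicate 2 than in replicate 1 by more than 1, and the 56 whose level in 2% HS was below that of 10% FBS by more than 1. They had 12 genes in common, 38.7% of the first and 21.4% of the second, where 0.522% of all 10726 genes belonged to the second set and 0.289% to the first. The overlap was not tested. Among the 12 were Fos, Fosb, Ier2, Junb and Egr1, and the other 7 were Zfp36, Id3, Socs3, Cxcl1, Rasl11a, Tmc3 and Stmn2.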

How the data were processed

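A stranded mRNA kit was used for the 6 libraries. After trimming with cutadapt 1.9.1 and mapping to mm10 with TopHat2 2.1.0, the authors took FPKM from Cufflinks. The deposited FPKM values, divided by transcript length and library depth, are 1 table with a column per library. Read counts were not used here. Per-sample columns left unused numbered 0.

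The 10 entries with a repeated name were left out, and 20940 were used. Values were compared as log2(FPKM + 1), where the pseudocount of 1 FPKM understates the change of low genes. Calls and counts were made over the 10726 genes whose mean reached 1 FPKM. A gene was called past 1 or -1, in each library where a group had 2, as the study's own threshold is a log2 fold change of that size. limma 3.58.1 (R 4.3.3) was fitted to all 6 libraries with 1 mean per condition, a mean-variance trend and Benjamini-Hochberg adjustment over all genes, two-sided. It had 1 residual degree of freedom and assumes that single libraries spread like the replicated condition. Tables were handled in Python 3.11.15 with pandas 2.3.3.

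Named besides the 10 genes are, of each pathway list and of the called markers, up to 3 of the largest rises and falls called in 0.2% FBS with exosomes, or, where fewer than 2 were called, the 2 genes of largest absolute mean difference. Marker and reference lists were otherwise given by counts and ranges, with Myod1, Myog, Ptprc, Emr1, Hbb-b1 and Ppbp named outside this rule. Tmc3, Stmn2, Hsph1, Myf5 and Cdh15 were named after their values were seen. The genes and lists were chosen with earlier results of these data known. Neighbours in profile were the 5 genes of smallest distance with a standard deviation of at least 0.5. Reads per gene and library depth were estimated from genes with 1 annotated transcript over 1000 bases, choosing the depth that put the most low values within 0.1 of a whole number of reads and assuming fragments of 200 bases. With this depth 73.3% to 75.7% of the low values were near whole, against 20% for an even spread. No count test was run on these estimates.

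Alternatives were a pseudocount of 0.1, values below 1 FPKM raised to 1, scaling to the 75th percentile, no filter on low values, no trend, 1 exosome effect common to both media in the 5 differentiating libraries, and leaving out each exosome library in 0.2% FBS. Leaving each out of the fit with a common effect, and scaled counts per library, were added after the data were seen. Overlapping genes come from GENCODE vM21 on mm10, and promoters from RefSeq on GRCm38.p6.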

Additional observations from a re-analysis of the deposited data

Results flagged for a closer look

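Of the 10 genes, 4 had exosome differences of opposite sign in the 2 media, above the control in both exosome libraries of 0.2% FBS and below it in 2% HS + exosome. Over all genes, 55.2% were above the control in both exosome libraries of 0.2% FBS, and the median difference in 2% HS was -0.04. The share of all genes with such opposite signs was not counted, so the count of 4 is no result about these genes. The difference between the media, 0.2% FBS minus 2% HS, was 2.00 for Fosb (SE 1.28, limma adjusted p = 0.425, 0.335 to 0.747 over the alternatives), 0.49 for Fosl1 (SE 0.28, limma adjusted p = 0.371, 0.353 to 0.479 over the alternatives), 1.02 for Junb (SE 0.66, limma adjusted p = 0.433, 0.419 to 0.735 over the alternatives) and 1.21 for Dusp1 (SE 0.42, limma adjusted p = 0.18, 0.161 to 0.524 over the alternatives). None passed the adjusted threshold. After scaling to the 75th percentile Junb was at -0.01 in replicate 1 of 0.2% FBS + exosome, so that its sign no longer differed there. With values below 1 FPKM raised to 1, Fosb was at 0 in 2% HS, and its sign did not differ either.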

How the results depend on the processing

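Fos was called higher with exosomes in 0.2% FBS under every alternative run for the fold threshold. With a pseudocount of 0.1, Fosb joined it and 2 of the 10 genes were called. Genes called higher or lower over the whole table went from 96 to 193 higher with exosomes in 0.2% FBS, from 38 to 69 higher and 32 to 57 lower in 2% HS, from 74 to 195 lower in 0.2% FBS against 10% FBS, from 56 to 129 lower in 2% HS against 10% FBS, from 22 to 52 higher and 1 to 24 lower for the exosome libraries against 10% FBS, and from 31 to 73 higher and 32 to 52 lower in replicate 2 against replicate 1. With values below 1 FPKM raised to 1, the same counts were 182, 69, 54, 190, 120, 44, 23, 70 and 51. Under either of these settings Jun just passed the threshold in 2% HS against growing cells, which made 7 of the 10 in place of 6 called lower, and Egr2 (1.24 and 1.28) joined those higher in replicate 2 than in replicate 1, which made 6 in place of 5. The pseudocount understates low genes by construction. With scaling to the 75th percentile, 63 genes were called higher with exosomes in 0.2% FBS and 7 lower against 10% FBS, and Jun (0.90) was no longer past 1 in replicate 2. The limma difference between media called 350 genes with scaling, 45 without the trend and 0 without the filter, against 125. The limma effect in 0.2% FBS called 0 genes without the filter (3120 unadjusted) and 0 with 1 effect common to both media (708 unadjusted), against 1343. The cause of these shifts was not tested.

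Leaving out 1 exosome library in 0.2% FBS gave 1 to 6 of the 10 genes called higher, 155 to 312 genes higher and 183 to 305 lower over the table, and, against 10% FBS, 0 to 6 of the 10 lower, 66 to 100 genes higher and 9 to 26 lower. The highest count of the 10 called higher, 6, comes without replicate 1, and the 6 called lower against 10% FBS come without replicate 2. The limma fit with 1 mean per condition has no residual degree of freedom without either library, so these values have no test. The fit with 1 effect common to both media kept 1 degree of freedom and, in an alternative chosen after seeing the data, called 0 of the 10 genes and 0 of all genes without either library (402 unadjusted without replicate 1, 294 without replicate 2). Its effects without replicate 2 were opposite in sign for Fosl1 (-0.0535), Egr1 (-0.11), Junb (-0.11) and Ier2 (-0.0199). Of 430 values of single genes under the alternatives, 412 kept their direction, 1 was at 0 (Fosb in 2% HS, values below 1 FPKM raised to 1) and 17 were of opposite sign, and none of the 17 was a called value. Without replicate 2, Egr1 (-0.19) and Ier2 (-0.17) lay below 0.2% FBS. No pairing by replicate number was made, because the groups compared share fewer than 2 of these numbers. The fit with 1 effect common to both media compared control and exosome libraries within each medium. Over the 5 differentiating libraries it had 2 residual degrees of freedom.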
